A study of Homo sapiens with 6 samples.

Results

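The keratin genes were almost without called accessible chromatin in GM12878 cells. They were defined as the protein-coding genes of chromosomes 12 and 17 whose symbol is KRT followed by digits and an optional letter, which leaves out the keratin-associated protein genes (KRTAP) and KRTCAP genes. This gave 55 genes of 20098 protein-coding genes on chromosomes 1 to 22 and X, with 27 on chromosome 12 and 28 on chromosome 17. A peak lay in the gene body or the 1 kb on either side of it in at least 1 library for 3 keratin genes, KRT7, KRT10 and KRT80, and in all 6 libraries for 0. Among the other 20043 protein-coding genes the same window held a peak in at least 1 library for 71.4% and in all 6 libraries for 55.0%.

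Keratins are the intermediate filament proteins of epithelial cells. A filament is built from pairs of an acidic type I keratin and a basic type II keratin, and the type I genes lie together on chromosome 17 while the type II genes, with the type I gene KRT18, lie together on chromosome 12. Each kind of epithelium uses its own pairs, such as KRT8 with KRT18 in simple epithelia, KRT5 with KRT14 in basal epidermal cells and KRT1 with KRT10 above them, and lymphoid cells build their cytoplasmic filaments mainly from vimentin instead.

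The libraries were bulk ATAC-seq, in which Tn5 transposase cuts and tags open DNA, of GM12878, an established B-lymphoblastoid cell line transformed with Epstein-Barr virus. All cells were fixed with formaldehyde, and the labels of the 3 groups of 2 replicates set them apart by how crosslinks were reversed after transposition. In the SDS group a buffer with 1% sodium dodecyl sulfate was followed by DNA purification, in the purified group a new buffer without SDS was followed by purification, and in the unpurified group (bulk MI-ATAC in the labels, also called Pi-ATAC) the PCR mix was added straight to the new buffer. The methods also give, for the unpurified procedure, a lysis buffer with another detergent content (Igepal CA-630), an EDTA quench and removal of the supernatant, and where the groups differed in these steps too, their parts cannot be told apart. The comparison of the groups asked whether the new buffer, with or without purification, gives the same open regions as the older procedure. The labels do not say whether the replicates came from separate cultures, and every library is of 1 cell line, so the spread between replicates may be technical.

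Each library was given as a list of peaks called at a q-value of 0.01. The SDS libraries held 37654 and 34826 peaks, the purified libraries 38023 and 30136, and the unpurified libraries 36252 and 34438. Total read numbers were not analysed here, so a gene without a peak is a gene whose signal stayed below the calling threshold, not a gene with no cut. The weakest peaks of each library had 8 or 9 reads piled up at the summit and the median peak had 20 to 22. In bulk samples, a site open in few cells and a site weakly open in many cannot be told apart.

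B cell markers were set beside the keratins as genes of the cell line's own lineage. The 7 B cell genes reported here had a peak within 1 kb of a transcript start in at least 1 library, and 4 of them, PAX5, EBF1, MS4A1 and CD74, had one in all 6, where other protein-coding genes had shares of 62.3% and 46.8%. Their strongest promoter summits ran from 43 to 58 reads at PAX5, the B lineage regulator, and from 60 to 79 at CD74, the invariant chain of antigen presentation. CD79B, a subunit of the B cell receptor, was called in 1 library with 12 reads, so a gene of the cell's own lineage can fall near the threshold.

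The 2 keratin regions called in 5 libraries are shown first, because they carry most of the accessible signal of the family. Each sequence is 200 bases of hg19 around the median summit, 5′ to 3′ on the coding strand of its gene. Capitals mark GGGCGG, the SP1 box, and TGANTCA, the AP-1 site, which were searched on both strands. The other motifs searched were the TATA box TATAAA, the ETS site CCGGAAG, the RUNX site TGTGGTT, the interferon response site GAAANNGAA, the E-box CACGTG and the core of the CTCF site, AGGNGGC. The KRT7 stretch is chr12:52637988-52638187 on the plus strand and the KRT10 stretch is chr17:38975147-38975346 on the minus strand.
KRT7 region: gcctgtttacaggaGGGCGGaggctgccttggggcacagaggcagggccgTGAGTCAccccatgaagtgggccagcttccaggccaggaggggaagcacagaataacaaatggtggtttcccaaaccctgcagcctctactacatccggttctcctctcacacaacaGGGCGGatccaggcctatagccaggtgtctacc
KRT10 region: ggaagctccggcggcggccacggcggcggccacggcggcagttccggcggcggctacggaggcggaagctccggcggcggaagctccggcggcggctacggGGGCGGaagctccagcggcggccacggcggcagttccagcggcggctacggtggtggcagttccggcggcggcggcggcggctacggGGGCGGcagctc
The KRT7 stretch had 2 GGGCGG matches and 1 TGANTCA match, and of 56434 stretches of the same length around the summits of all merged regions 19.3% held at least 1 of the former and 14.6% at least 1 of the latter. The KRT10 stretch had 2 GGGCGG matches. Its GC content was 80.5%, higher than in 98.4% of all regions, while the KRT7 stretch had 59.5% and the median region 47.0%. A match describes the letters and not binding.

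KRT7 encodes the type II keratin of glandular and ductal simple epithelia, and its region had the highest mean −log10 q of the family, 8.24. The region spans chr12:52637830-52638301 on hg19, 472 bp inside the gene. The median summit lay in an intron of the canonical transcript, 11061 bp after the start of the canonical transcript and 74 bp from the start of an alternative transcript at position 52638162, whose first exon begins inside the region. SDS library 1 had 17 reads at the summit and 6.25-fold enrichment over the local background. Purified library 1 had 17 reads and 5.00-fold enrichment, and purified library 2 had 20 reads and 6.25-fold.
Unpurified library 1 had 18 reads and 5.08-fold enrichment, and unpurified library 2 had 20 reads and 5.36-fold. SDS library 2 did not call the region. The 5 calls were close in height, at or below the median peak of their own libraries, and between 31.4% and 53.9% of the peaks of the same library had a lower −log10 q. A second KRT7 region, chr12:52640723-52640972, was called in purified library 1 alone with 17 reads and 4.71-fold enrichment. It overlapped KRT7-AS, an antisense lncRNA gene, and its summit lay 361 bp after the 5′ end of that gene.

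KRT10 encodes the type I keratin that replaces the basal keratins as epidermal cells leave the basal layer. Its region, chr17:38974937-38975508, covered 572 bp, and the median summit lay in coding sequence of exon 7 of the 8 exons of the canonical transcript, 3619 bp after its start and 878 bp before its end. SDS library 2 had 15 reads and 6.20-fold enrichment. Purified library 1 had 18 reads and 7.38-fold enrichment, and purified library 2 had 11 reads and 4.79-fold.
Unpurified library 1 had 13 reads and 5.06-fold enrichment, and unpurified library 2 had 12 reads and 4.55-fold. SDS library 1, the SDS library that called KRT7, did not call KRT10. The KRT10 summits ranged from 11 to 18 reads against 17 to 20 at KRT7, with the higher fold enrichment at KRT10 in purified library 1 and at KRT7 in the other 3 libraries that called both. In unpurified library 2 and purified library 2, 8.34% and 9.31% of peaks had a lower −log10 q, against 57.2% in purified library 1. Their summits were spread over 287 bp. KRT10-AS1, a lncRNA gene on the opposite strand, starts inside the region at position 38975353, and the median summit lay 106 bp upstream of that start. The peaks carry no strand, so they cannot be assigned to KRT10 rather than to KRT10-AS1.

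KRT80, a type II keratin found broadly in epithelia, was called in unpurified library 1 alone. The 230 bp peak, chr12:52569641-52569870, lay in an intron, 16058 bp after the canonical start, with 14 reads, 4.39-fold enrichment and a −log10 q of 4.85, and 11.5% of the peaks of that library were weaker. The lncRNA gene LINC00592 overlaps it.

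**Figure D1:**
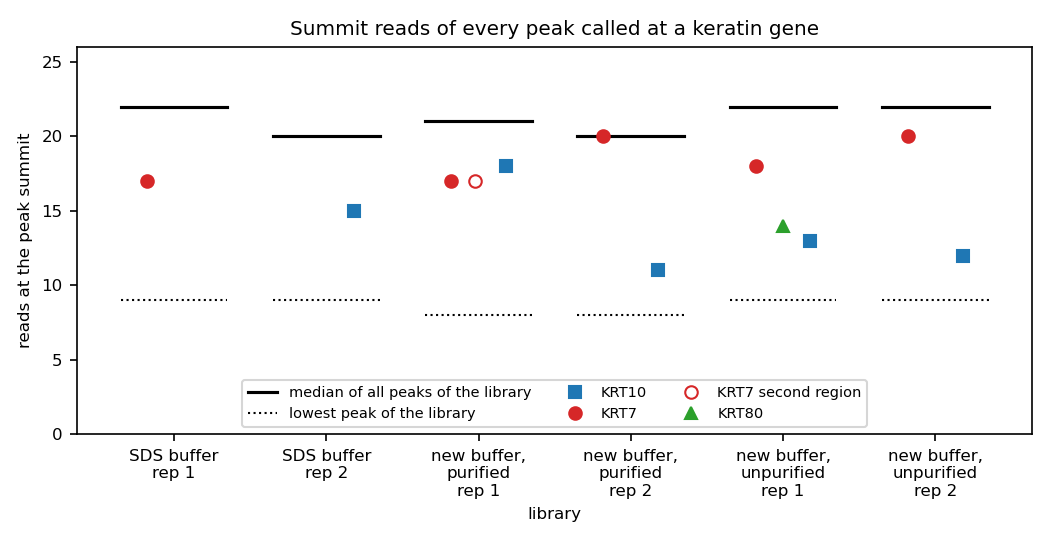
Reads at the summit of each peak called at a keratin gene (y axis, linear) in the 6 libraries (x axis), with the median and the lowest summit of all peaks of that library as solid and dotted lines. KRT7 summits had 17 to 20 reads, KRT10 summits 11 to 18 and the KRT80 summit 14, none above the median of 20 to 22, and no symbol means no call.

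KRT7 and KRT10, 2 of the 55 keratin genes, were called in exactly 5 of 6 libraries. So were 4.69% of the windows of other protein-coding genes, with or without a peak, and 8.63% of all 56434 merged regions. For KRT7 and KRT10 the missing library was a different SDS replicate each time. SDS libraries 1 and 2 therefore called 1 keratin gene each, purified libraries 1 and 2 called 2 each, and unpurified libraries 1 and 2 called 3 and 2. Between 61.6% and 65.4% of the other protein-coding genes were called in each library.

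The number of keratin genes called per library was 1.0 ± 0.0 (SD, n = 2) in the SDS group, 2.0 ± 0.0 in the purified group and 2.5 ± 0.71 in the unpurified group. The difference was 1.0 gene for purified minus SDS and 1.5 genes for unpurified minus SDS, both with an exact two-sided permutation p = 0.33, the smallest that 2 against 2 libraries allow, and p = 0.50 after Benjamini-Hochberg adjustment over the 3 comparisons. Unpurified minus purified was 0.5 genes with an exact permutation p = 1.0 (1.0 adjusted). This design cannot reach 0.05. With equal numbers of peaks per library, unpurified minus purified turned to -0.5 genes and unpurified minus SDS was 0.5. At a −log10 q of at least 5 they were 0.0 and 0.5, and purified minus SDS was 0.5. A keratin gene with 2 of 2 calls under one protocol and 0 of 2 under another was not found (0 of 55). Among other protein-coding genes such a pattern was met in 1.28% for purified and SDS, 1.48% for unpurified and SDS, and 0.998% for unpurified and purified.

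Peak strength at the called keratins was also set side by side within the new buffer, where KRT7 and KRT10 had all 4 calls. This comparison was chosen after seeing the data. At KRT7 the mean log2 fold enrichment was 2.38 ± 0.05 (SD, n = 2) unpurified and 2.48 ± 0.23 purified, a difference of -0.10 with an exact permutation p = 1.0. At KRT10 it was 2.26 ± 0.11 unpurified and 2.57 ± 0.44 purified, a difference of -0.31 with an exact permutation p = 0.67. Both differences were smaller than the SD of the purified libraries and larger than that of the unpurified ones. The fold enrichment of the 2 groups overlapped at both genes. The sign turned at KRT10 without purified replicate 1 (0.0026) and at KRT7 without purified replicate 2 (0.061). With summit reads over the lowest background of the library in place of the deposited fold, the difference at KRT7 was -0.19 with an exact permutation p = 0.33, the smallest possible, and the groups no longer overlapped. Of 21841 regions called in these 4 libraries, 32.2% had fold enrichment that did not overlap between purified and unpurified libraries, and 33.7% had summit reads over the lowest background that did not.

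The 52 keratin genes without a peak came from every branch of the family. Of 7 keratins grouped here as simple epithelial, KRT7 and KRT80 had a peak and the other 5 did not. The group takes in KRT80 although it is found broadly in epithelia. Those without a peak include KRT8 and KRT18, the first pair made in embryonic epithelium, and KRT19, the small keratin of ductal cells. The nearest peak of any library lay 83892 bp from the canonical start of KRT8 and 39850 bp from that of KRT18. It lay 137467 bp from that of KRT19. Among 13 suprabasal and other stratified keratins only KRT10 had a peak. KRT1, the type II partner of KRT10, had its nearest peak 308561 bp away, and KRT2, a keratin of the upper epidermis, had the most distant of the family at 324316 bp.

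The 3 basal keratins KRT5, KRT14 and KRT15, which are made by the dividing layer of stratified epithelia, had 0 peaks, with the nearest 192499, 78880 and 146885 bp from their starts. The same held for the 5 activation keratins KRT6A, KRT6B, KRT6C, KRT16 and KRT17, which epidermis makes after wounding, whose nearest peaks were 41200 to 165362 bp away. The 9 keratins of the hair follicle sheath, among them KRT25, KRT26 and KRT27, had none, at 18726 to 290664 bp. The 17 hair keratins, which form the shaft of hair and nail, also had none. Of these, KRT83 and KRT33A, were 6219 and 9152 bp from a peak outside their windows. KRT222 had no peak and a distance of 16843 bp.

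Over all 55 keratins the nearest peak was a median of 93716 bp from the canonical start, with a range of 3358 bp at KRT10 to 324316 bp at KRT2. For 52 of 55 (94.5%) it was more than 10 kb away. The median distance of the other protein-coding genes was 0 bp, since a peak covered the start, and 30.5% of them were more than 10 kb from a peak. Few of the 94 KRTAP genes, which encode the matrix proteins of hair, had a peak in their window. These were 1 of 34 on chromosome 17, where KRTAP genes lie between keratin genes, and 3 of 60 elsewhere. A peak lay within 10 kb of the canonical start for 13.8% of KRTAP genes and 5.455% of keratins.

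**Figure D2:**
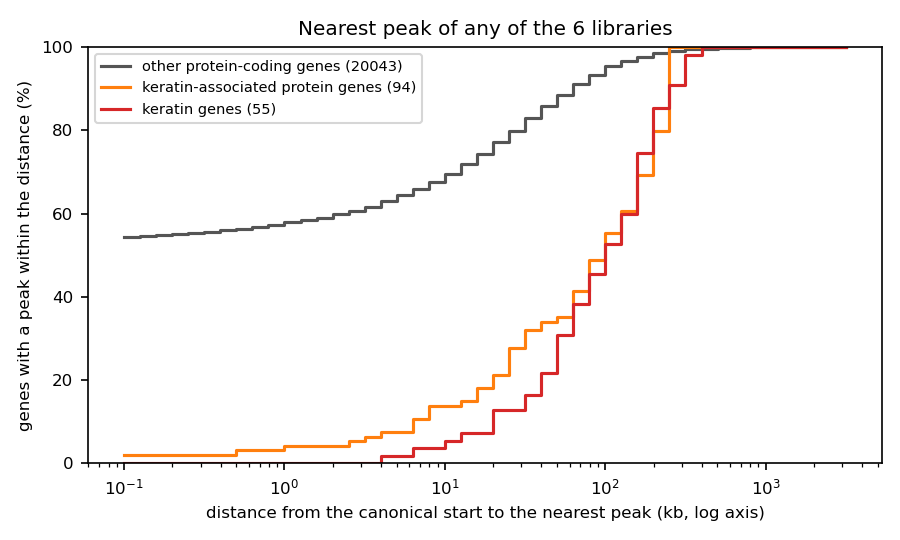
Percentage of genes (y axis) with a peak of any of the 6 libraries within a given distance of the canonical transcript start (x axis, kb, log axis), for keratin, KRTAP and other protein-coding genes. The keratin curve stays at 0 until 3358 bp and has its median at 93716 bp, whereas the curve of the other genes is already above 50% at its left end.

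Gene length and chromosome are shared properties that may bear on such a count, and their part was not tested beyond the shares given here. Keratin genes had a median length of 7098 bp against 27341 bp for the others, and a longer window can catch more peaks. Among other protein-coding genes as long as the middle 50% of the keratins, 5559 to 9387.5 bp, 55.2% had a peak in at least 1 library. On chromosomes 12 and 17 alone, 70.0% of the other protein-coding genes had one. The window of 1 kb around every annotated transcript start, whose size depends on the number and spread of those starts (1 to 18 per keratin gene, 13 at KRT7), held a peak for 1 keratin gene, KRT7, in 5 libraries, and for 0 in all 6. For other protein-coding genes it did so for 62.3% in at least 1 library, for 46.8% in all 6, and for 62.2% in at least 1 library on chromosomes 12 and 17. The KRT7 call came from alternative starts inside the gene, and 0 of 55 keratins had a peak within 1 kb of the canonical start.

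The keratins without peaks lay next to each other. From the first to the last keratin gene, with 1 kb on each side, the chromosome 12 cluster spanned 785.91 kb and held 4 merged regions, 5.09 per Mb against 20.7 per Mb over the chromosome. The chromosome 17 cluster spanned 972.18 kb and also held 4 regions, 4.11 per Mb against 16.1. None of the 8 regions was called in all 6 libraries. Of these, 4 lay in the keratin windows already described. Of those outside, chr12:52721401-52721679 was called in 3 libraries (SDS library 1, purified library 1 and unpurified library 1), 6352 bp from KRT83. Distances of these regions run from the median summit to the body of the keratin gene, not from the peak edge to the canonical start. The region chr17:39496786-39497559 was called in 4 libraries, 5281 bp from KRT33A, with 13 to 16 reads. The last 2 regions were called in 1 library each. One lay in KRTAP16-1, and the other, chr17:39497599-39497928, lay 4476 bp from KRT33A and was called in SDS library 1. It begins just past the end of the 4-library region, which SDS library 2, purified library 1 and both unpurified libraries called.

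In 4 stretches of over 100 kb without a peak in any library lay 49 of the 55 keratin genes. The longest, of 661.07 kb on chromosome 12, ran from KRT85 to KRT18 with 22 keratin genes, and ranked 4 in length among 2690 intervals between regions on that chromosome. On chromosome 17, a stretch of 489.26 kb held KRT12 to KRT40, 5 keratins together with 32 KRTAP genes, and ranked 13 of 1246. A stretch of 324.1 kb held the 16 keratins from KRT33A to KRT17, and one of 170.35 kb held the 6 from KRT222 to KRT28. These intervals include the basal, activation and most hair keratins, so genes of unlike epithelia shared the same uncalled stretch.

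**Figure D3:**
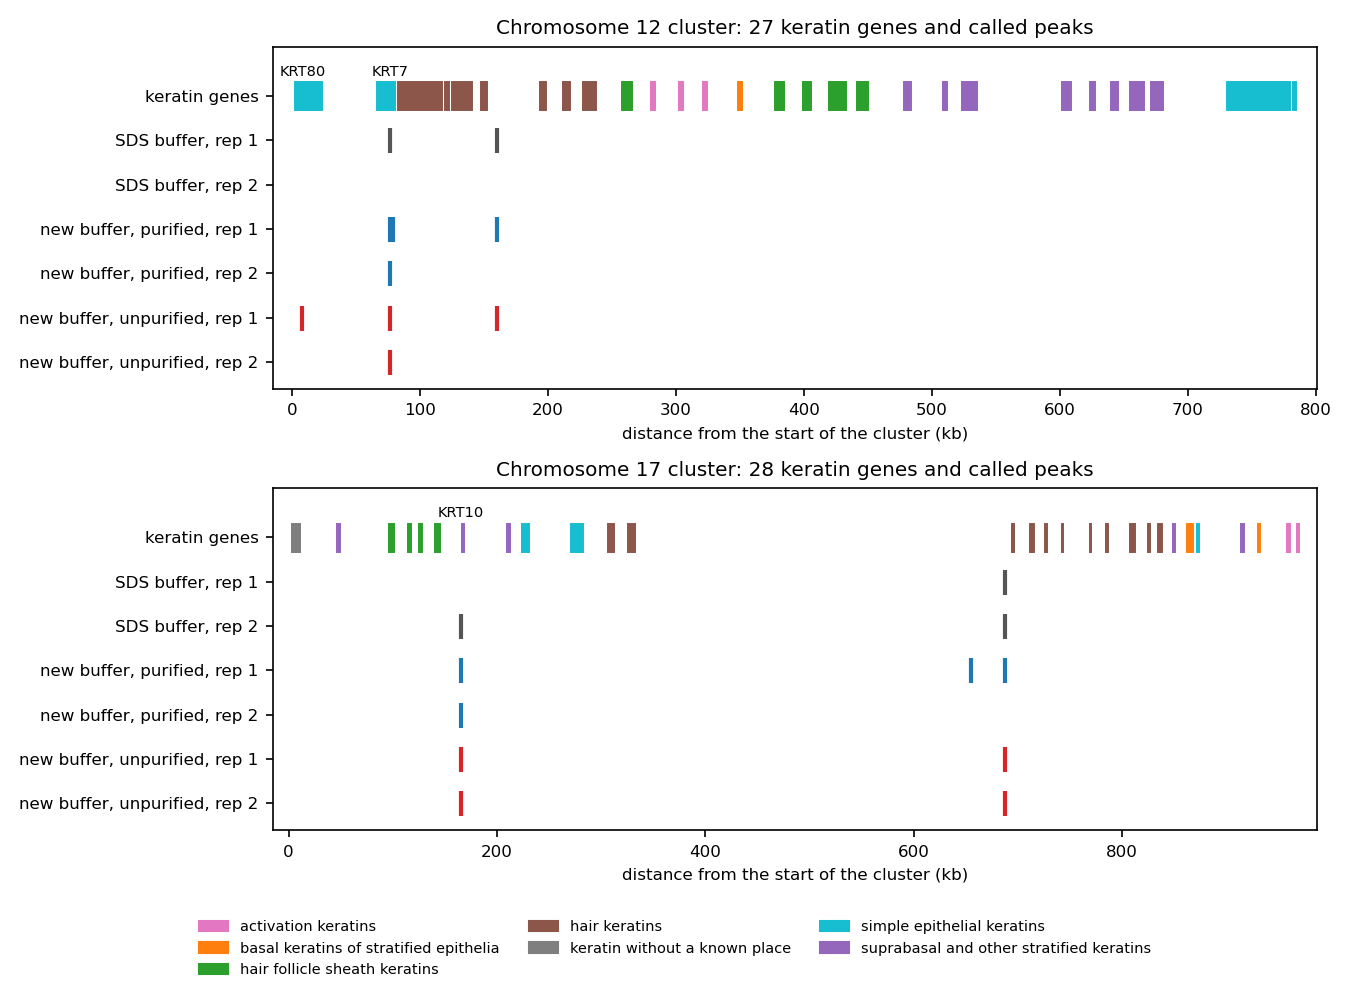
Keratin genes (coloured by group, top row of each panel) and the peaks called in each of the 6 libraries (ticks, 1 row a library) along the chromosome 12 and chromosome 17 clusters, against distance in kb from the cluster start. The ticks gather at KRT7, KRT10 and the sites near KRT83 and KRT33A, with a single tick each at KRT80 and KRTAP16-1. The chromosome 12 panel right of the site near KRT83, part of a 661.07 kb stretch, has no ticks.

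The clusters' neighbours were not all alike. EIF4B, a translation initiation factor gene 53376 bp beyond the last chromosome 12 keratin, had a promoter peak in all 6 libraries with 37 to 50 reads. EIF1, another such gene 64043 bp beyond the chromosome 17 keratins, had one in all 6 with 35 to 48 reads. On the opposite sides, SMARCE1, a chromatin remodelling gene 6011 bp from KRT222, was called in 2 libraries with at most 16 reads, and SMIM41, 60741 bp from KRT80, in 0. The keratin pseudogenes and noncoding keratin genes of the 2 chromosomes numbered 41, and 2 of them had a peak, KRT7-AS and KRT10-AS1, at the regions described above. Of 3079 other genes of the same annotated types on these chromosomes, 24.6% had one.

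CpG-rich promoters are commonly open in many cell types, so promoter sequence was set beside the calls. The promoter stretches below are hg19 bases from the 250 before the canonical start, 5′ to 3′ on the strand of the gene, without the bases annotated as untranslated region of another transcript. For KRT5 this left the 114 bases from 250 to 137 bp before the canonical start, and for KRT10 all 250. KRT5 stands for the basal keratins and KRT10, picked after its values were seen, for the keratins called inside the gene. Capitals mark matches on either strand to the motifs named above.
KRT5 promoter, chr12:52914315-52914428, minus strand: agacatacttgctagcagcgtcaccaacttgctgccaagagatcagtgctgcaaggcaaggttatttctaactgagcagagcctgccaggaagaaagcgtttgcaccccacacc
KRT10 promoter, chr17:38978867-38979116, minus strand: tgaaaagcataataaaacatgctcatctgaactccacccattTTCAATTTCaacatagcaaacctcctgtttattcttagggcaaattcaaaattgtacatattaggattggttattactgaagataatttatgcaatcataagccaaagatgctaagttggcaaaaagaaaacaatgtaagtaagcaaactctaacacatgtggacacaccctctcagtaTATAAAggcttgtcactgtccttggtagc
The KRT10 promoter held TATAAA from base 222 to base 227 of the printed stretch and a reverse-strand match to GAAANNGAA from base 43 to base 51. The 114 bases printed for KRT5 had none of the motifs. Neither start had a peak within 1 kb in any library.

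Across promoters of 300 bases, from 250 before the canonical start to 50 after it, the ratio of observed to expected CpG had a median of 0.19 for keratins (range 0.0 to 0.88) and 0.77 for other protein-coding genes. In the 250 bases before the start, TATAAA stood in 27 keratins (49.1%) and in 9.42% of all 20098, and GGGCGG in 10 keratins (18.2%) and in 58.6% of all. CCGGAAG, the ETS site, and TGTGGTT, the RUNX site, were in 0 keratin promoters and in 11.8% and 2.84% of all. GAAANNGAA was in 6 (10.9%) against 6.17% of all, and TGANTCA in 5 (9.09%) against 4.73%. CACGTG was in 1 (1.82%) against 7.86%, and AGGNGGC in 14 (25.5%) against 38.2%. The ratio was under 0.2 for 30 keratins, and 8.69% of other genes in that class had a peak at the canonical start in at least 1 library. From 0.2 to under 0.4 there were 17 keratins, and 14.2% of the other genes had such a peak. The share of other genes rose through the classes above, to 35.6% from 0.4 to under 0.6, 68.0% from 0.6 to under 0.8 and 81.8% from 0.8 upward. Only 8 keratins fell in these 3 classes, 4 in the first (KRT85, KRT17, KRT14 and KRT19), 3 in the second (KRT222, KRT72 and KRT7) and KRT18 alone in the last, with a ratio of 0.88. No keratin had a canonical promoter peak in any class, neither the 47 in the 2 lowest nor the 8 in the 3 highest. The part of CpG content in this was not tested.

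**Figure D4:**
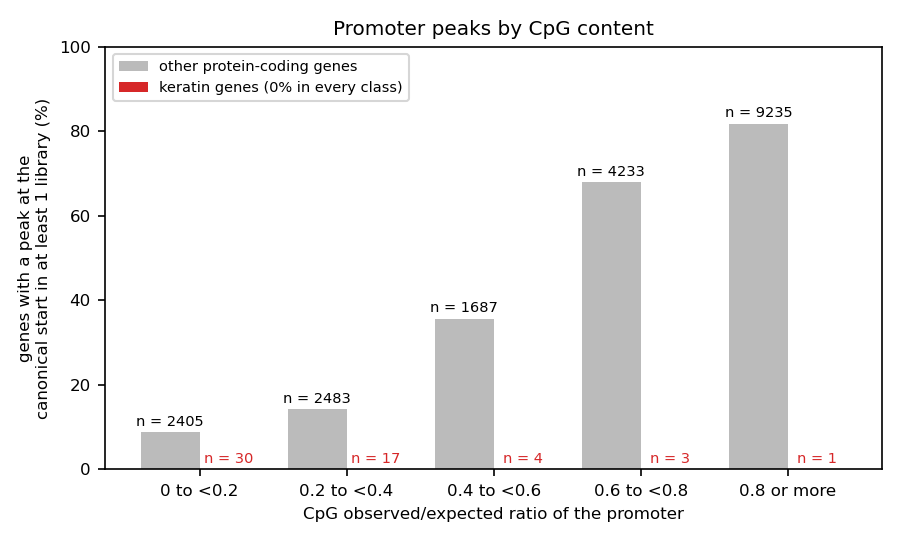
Percentage of genes with a peak within 1 kb of the canonical start in at least 1 library (y axis) by class of promoter CpG observed/expected ratio (x axis), for other protein-coding genes (grey) and keratin genes (red, 0% in each class, with the number of genes printed). The grey bars rise from 8.69% to 81.8%, and 47 of the 55 keratins stand in the 2 lowest classes.

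Some keratin genes are near-identical copies, and reads of low mapping quality, such as those that fit several places, were filtered out by the authors. The methods give reads of 75 bases for the unpurified procedure and no read length for the bulk SDS procedure. The share of the window made of 75-base stretches that occur again elsewhere in hg19 had a median of 0.503% over the 55 keratins. This share counts single stretches, while read pairs were mapped. It exceeded 5% in 5 genes, KRT6A, KRT6B, KRT6C, KRT81 and KRT86, and was highest at KRT81 with 33.4%. In 33 keratins no such stretch lay in the promoter window. The share of the promoter window exceeded 5% in 8 keratins and was highest at KRT81 with 39.5%. The part of repeated sequence in the lack of peaks was not tested beyond these shares.

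Genes of related structures were set beside the keratins, and their counts stand against the 71.4% of other protein-coding genes with a window peak and the 62.3% with a promoter peak in at least 1 library. Of 13 other intermediate filament genes, 7 had a peak in their window and the same 7 at a promoter. VIM, which encodes vimentin, had 49 to 70 reads at its promoter summit in all 6 libraries, and LMNB1, a nuclear lamin gene, 68 to 94. BFSP2, a lens filament gene, had 52 to 64 reads in all 6, while LMNA had 16 to 31 and BFSP1 15 to 36. DES, the muscle member, and GFAP, NES, PRPH, INA and NEFH, the neural ones, had no peak. The level at VIM was thus above that of every keratin peak in each library.

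Of 13 genes of desmosomes, the junctions to which keratin filaments attach, and of plakin linkers, 8 had a window peak and 4 a promoter peak. DSG2, a desmosomal cadherin, was called at its promoter in all 6 libraries with 30 to 51 reads and PLEC, which encodes the linker plectin, with 16 to 23. DSP, which encodes the desmoplakin that binds keratin filaments, had none, nor did DSG3, DSC3, PKP3 and EVPL. Of 7 cornified envelope genes, 3 had a window peak (IVL, LORICRIN and TGM3) and 0 had one in all 6 libraries.

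Of 9 regulators of epithelial genes, 8 had a window peak and 5 a promoter peak. TFAP2A had 76 to 113 reads at its promoter in all 6 libraries, KLF5 50 to 58 and TP63, a master regulator of stratified epithelium, 16 to 26, whereas OVOL1 had none. Among 8 epithelial markers, 6 had a window peak, among them CDH3 in 5 libraries and ESRP1 in 1. EPCAM and CLDN4 had 0 peaks, CDH1 and GRHL2 had window peaks in all 6 libraries but no promoter peak, and 2 had a promoter peak (ELF3 and TP63, which also stand among the regulators). Of 5 T cell markers, 2 had a window peak (CD2 in 5 libraries and CD3E in 3) and 0 a promoter peak. Of 4 myeloid markers, 2 had a window peak (CD14 in 4 libraries and CSF1R in 1), and CD14 had a promoter peak of at most 17 reads. Of 4 erythroid markers, EPOR alone had a peak, at its promoter in all 6 libraries with 24 to 39 reads. These lists are short and describe only the genes in them.

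**Figure D5:**
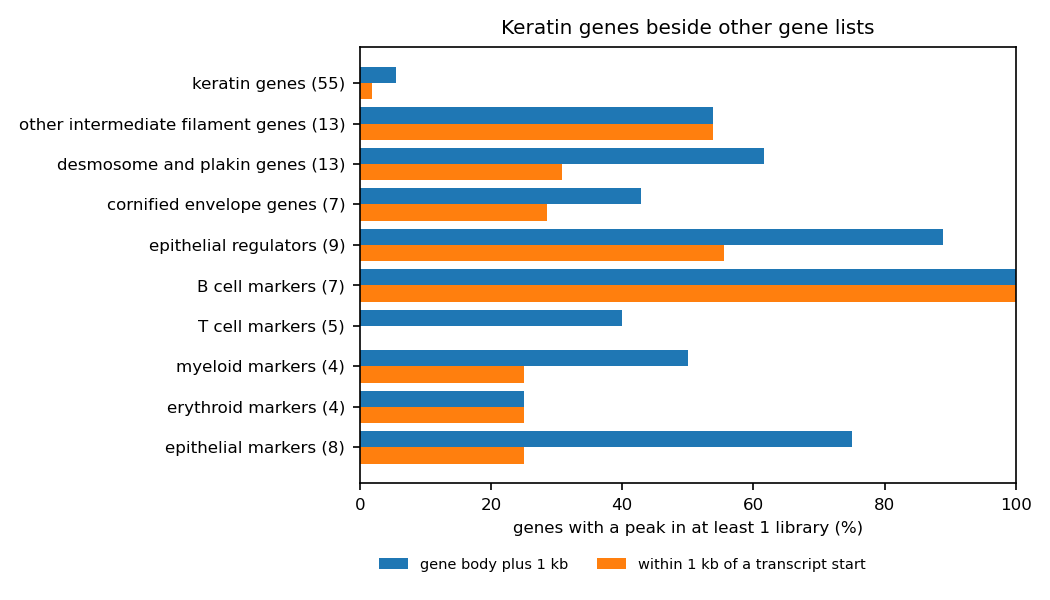
Percentage of the genes of each list (y axis, number of genes in brackets) with a peak in at least 1 library in the gene body plus 1 kb (blue) or within 1 kb of a transcript start (orange). Keratins are at 3 of 55 and 1 of 55, against 7 of 13 for both windows in other intermediate filament genes and 7 of 7 in the B cell genes reported here.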

How the data were processed

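The authors mapped trimmed read pairs to hg19 with Bowtie2 2.1.0, kept proper pairs above quality 30, and removed mitochondrial reads and, with Picard 1.79, duplicates. They ran MACS2 in narrow peak mode (q 0.01) and left out blacklisted regions. The deposited peak lists, 1 per library, hold a score, a fold enrichment ratio over local background, and −log10 p and −log10 q values, in 6 libraries. The methods also describe pooling the reads of one condition for calling, but each replicate had its own list and was treated as called alone. Total counts are not in these lists. Genes and transcript starts were taken from GENCODE 44 lifted to GRCh37. Members, lists, rules and tests were chosen with earlier results of these data known. Keratins with a peak in their window were named with every calling library, and others were counted by group with the first few named. Overlaps used 1 base. Summit reads were solved from fold and p, which fitted 100% of peaks within 0.001. Peaks of all libraries were merged into regions. Libraries were compared by exact permutation in Python 3.11.15 with SciPy 1.17.1. Overlap was checked against bedtools 2.31.1 on simulated peaks. Alternatives were window size, a −log10 q of 5, equal peak numbers, other overlap rules and each replicate left out. No keratin region was called in all 6 libraries, so the planned fold test over such regions was replaced by one within the new buffer, repeated on summit reads over the lowest background. A B cell marker and some promoter sequences are not reported here, for a reason unrelated to their values.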

Additional observations from a re-analysis of the deposited data

How the results depend on the processing

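The number of keratin genes with a peak in at least 1 library stayed at 3 in the gene body alone and under both other overlap rules. It was 2 for peaks whose −log10 q reached 5 and for the 30130 strongest peaks per library. At a −log10 q of 5 KRT7 kept its calls in 5 libraries. KRT10 was then called in 3, SDS library 2, purified library 1 and unpurified library 1. With 5 kb on each side the number of keratin genes was 5, which added KRT86 and KRT33A. The KRT86 calls came from peaks inside KRT7, in the same 5 libraries. With each replicate left out the number of keratin genes ran from 2 to 3. The number in all remaining libraries ran from 0 to 1, since KRT10 without SDS replicate 1 and KRT7 without SDS replicate 2 were called in every other library. KRT80 is lost without unpurified replicate 1. The share of other protein-coding genes was 69.7% in the gene body alone, 75.8% with 5 kb, 69.4% at a −log10 q of 5 and 69.2% with equal peak numbers. Unpurified minus purified was 0.0 genes at a −log10 q of 5 and reversed to -0.5 with equal peak numbers. With 5 kb unpurified minus SDS was 2.5 and unpurified minus purified 1.5. With a replicate left out unpurified minus purified ran from 0.0 to 1.0. Keratins with a promoter peak in at least 1 library fell from 1 to 0 at the 5′ end of the gene only and, in an alternative chosen after seeing the data, at the canonical start only. The number in all libraries ran from 0 to 1 with a replicate left out. The fold difference within the new buffer was also chosen after seeing the data. It reversed without purified replicate 1 at KRT10 (0.0026) and without purified replicate 2 at KRT7 (0.061), and with summit reads over the lowest background it was -0.41 at KRT10 and -0.19 at KRT7. Leaving out each replicate gave ranges of -0.62 to 0.0026 and -0.26 to 0.061. Fold over regions called in all 6 libraries gave no value, except that 1 region was left when an SDS replicate was left out, with no test. Without SDS replicate 1, log2 fold at KRT10 differed by -0.06 for purified minus SDS and -0.37 for unpurified minus SDS. Without SDS replicate 2 the values at KRT7 were -0.16 and -0.26. Replicate differences of 2 groups correlated at 0.013, -0.001 and 0.015 over 20061 regions, so replicate numbers showed no pairing in these values. The labels do not say whether same-numbered replicates shared a culture, and these correlations cannot decide it. With a replicate block the differences of 1.0, 1.5 and 0.5 genes had exact p = 0.5, 0.5 and 1.0, with 0.5 the smallest possible. The window counts and the differences between groups did not change without peaks at promoters of non-keratin protein-coding genes. Nor did they change without peaks touching the body of a second keratin. These checks used 1 kb on each side and were not run with 5 kb or on the promoter counts. Promoters of lncRNA genes, such as KRT10-AS1 inside the KRT10 region, were not among those left out.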
